A study of Mus musculus with 2 samples.

Results

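Neutrophils rich in transcripts of the secondary granules were selected from mouse bone marrow and described in 2 libraries, a control and one from mice with middle cerebral artery occlusion (MCAO), which starves part of the brain of blood and models stroke. The cells were chosen on their own measured values, as UMIs (unique molecular identifiers, which count mRNA molecules) per 10000 UMIs of the cell. A cell was kept when Ltf, Camp and Ngp summed to at least 400, Fcnb was below 10, and S100a8 and S100a9 summed to at least 400. This kept 1863 of 10610 cells, 809 of 5212 in the control library and 1054 of 5398 in the MCAO library. Both libraries came from unsorted marrow of male wild-type mice (genotype label WT) aged 8 to 10 weeks, 1 library per condition. Marrow was flushed from leg bones, strained, put in red blood cell lysis buffer and captured on the BD Rhapsody microwell system. The strain, how many mice went into each library, how long after the occlusion marrow was taken and what was done to the control mice are not given in the sources used here. With 1 library a group no test between the conditions was possible, and no difference could be set against replicate spread. The 95% intervals in square brackets account for counting error alone. Those of ratios treat the pooled UMIs as independent, so they leave out variation between cells as well as between animals and are too narrow for genes that vary between cells.

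Neutrophils form in the marrow from dividing precursors, and their granules are filled in a fixed order. Primary granules with Mpo, Elane and Prtn3 come first, secondary granules with lactoferrin (Ltf), cathelicidin (Camp), neutrophilic granule protein (Ngp) and lipocalin 2 (Lcn2) come next, and gelatinase granules with Mmp9 come late. Fcnb, which encodes ficolin B, marks the earlier, dividing cells, and the receptor Cxcr2 marks cells close to release into blood. S100a8 and S100a9 encode calprotectin, the most abundant cytosolic protein of neutrophils.

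The bases before the start sites of 3 genes are shown because Ltf and Ngp belong to the rule and Mmp8 divided the selected cells. Sequences and start sites are RefSeq's for build GRCm38.p6, read 5′ to 3′ on the gene's strand, from 250 bases before the start site to the start site or to the edge of the GENCODE gene where that comes first. Capitals mark TTGCNNAA, letters bound by C/EBP factors, and GAGGAA, letters bound by PU.1, searched on both strands. The stretches are chr9:111019042-111019270 for Ltf, chr9:110419558-110419746 for Ngp and chr9:7558179-7558428 for Mmp8, each on the plus strand.
Ltf: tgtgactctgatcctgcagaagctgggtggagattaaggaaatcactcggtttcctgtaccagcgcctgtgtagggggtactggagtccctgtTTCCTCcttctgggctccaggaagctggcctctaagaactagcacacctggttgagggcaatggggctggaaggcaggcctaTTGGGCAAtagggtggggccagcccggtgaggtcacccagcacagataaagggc
Ngp: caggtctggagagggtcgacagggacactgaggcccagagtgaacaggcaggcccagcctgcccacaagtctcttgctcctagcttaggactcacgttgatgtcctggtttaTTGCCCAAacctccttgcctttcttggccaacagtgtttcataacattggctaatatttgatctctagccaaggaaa
Mmp8: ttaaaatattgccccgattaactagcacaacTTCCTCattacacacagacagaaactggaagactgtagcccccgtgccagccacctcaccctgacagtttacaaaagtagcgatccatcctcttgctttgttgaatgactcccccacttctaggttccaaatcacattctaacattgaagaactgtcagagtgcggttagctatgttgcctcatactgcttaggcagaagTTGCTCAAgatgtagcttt
The C/EBP letters lay 75 bases before the start site of Ltf, 138 and 11 bases before that of Ngp (the nearer one outside the printed stretch) and 19 bases before that of Mmp8. The PU.1 letters lay 157 bases before Ltf and 219 before Mmp8. The same 250 bases of Camp, also on chromosome 9, held 0 matches to either. Of 32851 mouse promoters of this length in the table, 9.56% held the C/EBP letters and 23.3% the PU.1 letters, so a match describes the letters and shows no binding. The selected cells carried mRNA for several of these factors. Cebpe, a factor needed for secondary granule genes, stood at 3.43 UMIs per 10000 in control and 3.38 in MCAO cells, Cebpd at 4.83 and 4.73, and Spi1, which encodes PU.1, at 5.02 and 4.68.

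The selected cells held 4629887 UMIs among control and 6863868 among MCAO cells, with medians of 5229 and 6168 UMIs and 1567 and 1724 genes per cell. Free RNA was gauged in 1128 control and 620 MCAO B-lineage cells (Cd79a and Cd79b summing to at least 10, Ltf, Camp and Ngp below 400), where S100a8 still reached 53.1 and 69.3 UMIs per 10000. These cells were shallower, with medians of 2002 and 2144.5 UMIs, and levels there were not matched for depth. The gate set no upper limit on S100a8 and S100a9, so mixed cells were not kept out. Marker sums there also differed between the libraries, at 88.7 and 143 for dendritic and 9.88 and 4.93 for progenitor markers. Among the selected cells, 9 of 9 B-lineage markers past the floor given below were at least 1.5-fold lower in the MCAO library. Of all genes past that floor 4.12% were. The 10 markers listed summed to 4.59 per 10000 in control and 2.12 in MCAO cells, against 175 and 158 in the B-lineage cells, and 0 of the 10 were at 0. The other marker sums were 16.4 and 19.3 for erythroid, 0.970 and 0.680 for T and NK, 3.43 and 3.91 for monocyte and macrophage, 4.89 and 3.45 for dendritic and 2.10 and 1.30 for basophil, mast and eosinophil markers. Single cells were screened only for Cd79a and Cd79b, the Cd3 genes, haemoglobin genes, and Siglech and Ccr9. In 7 control and 4 MCAO cells at least 1 of these sets passed its threshold. Monocyte, macrophage, NK, basophil, mast cell and eosinophil markers were not screened cell by cell. Cell names are running numbers rather than barcodes, so shared barcodes could not be counted. 5120 names occurred in both libraries, and for 156 of them both cells were selected, where the selected shares alone give 154.7. As the names are running numbers, these values cannot show whether any cell was shared between the libraries.

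The genes of the rule are given as a description. Ltf stood at 174 UMIs per 10000 in control and 168 in MCAO cells, Camp at 128 and 126, and Ngp at 531 and 501. S100a8 stood at 638 and 670, S100a9 at 671 and 655, and Fcnb at 2.05 and 2.32. Per cell, the sum of Ltf, Camp and Ngp ran from 401 to 1409 in the control library around a median of 839, and from 401 to 1263 in the MCAO library around 801. Just inside the threshold, at 400 to 450, lay 29 control and 42 MCAO cells, and just outside, at 350 to 400, lay 42 and 43. Retnlg, which encodes a resistin-like protein, stood at 229 and 228 in the inner and at 332 and 217 in the outer cells. Fcnb had 0 UMIs in 53.9% of the control and 46.6% of the MCAO cells, and the deepest cells passed with up to 17 and 16 Fcnb UMIs, so the Fcnb limit acts on different UMI numbers at different depths. The S100 threshold alone removed 2 control and 5 MCAO cells.

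The label was compared with 2 marker genes that the rule left free. Lcn2 was found in 100% of cells of both libraries, at 233 and 236 UMIs per 10000 against 12.3 and 16.1 in B-lineage cells. Ly6g, which encodes the neutrophil surface antigen, stood at 17.6 and 18.7 against 0.832 and 1.05. After thinning each cell to 2000 UMIs, 88.2% of 790 control and 88.9% of 1050 MCAO cells held a Ly6g UMI, against 13.6% and 14.9% of thinned B-lineage cells. Both markers were far above their level in B-lineage cells, so the neutrophil part of the name held, while the word immature covers cells of different granule stage, described below.

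Cd177, the surface protein in the title of the series, stood at 35.7 UMIs per 10000 in control and 37.8 in MCAO cells, a ratio of 1.06 [1.04 to 1.08], against 1.84 and 2.53 in B-lineage cells. Its per-cell values overlapped widely, with a median of 34.9 and a middle 90% of 15.6 to 59.9 in control cells and a median of 37.1 and a middle 90% of 19.3 to 59.1 in MCAO cells. A Cd177 UMI was found in 806 of 809 control cells (99.6%) and in 100% of MCAO cells, and in 30.2% and 40.6% of B-lineage cells. After thinning to 2000 UMIs the shares were 99.2% and 99.6% against 28.8% and 35.4%, so Cd177 was present in nearly all selected cells of both libraries.

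The selected cells made up 15.5% [14.5 to 16.5] of the control and 19.5% [18.5 to 20.6] of the MCAO library, a difference of 4.0 percentage points. The B-lineage cells made up 21.6% and 11.5% of the same libraries. Over the cells outside that B-lineage gate, an added denominator, the selected shares were 19.8% and 22.1%. Over the cells with S100a8 and S100a9 at 400 or more they were 34.5% [32.6 to 36.5] and 37.3% [35.5 to 39.1]. Over cells with at least 2000 UMIs they were 20.5% and 22.2%, a difference of 1.66 points for which no interval was computed. The median depth of the whole libraries was 3344 and 4952 UMIs. The part of depth and of the B-lineage share in the difference between the libraries was not tested.

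The selected cells were split by Mmp8, the neutrophil collagenase, whose per-cell level had a low and a high range on a log axis in both libraries. On the linear scale the levels spread broadly. The lower quartile, median and upper quartile were 3.29, 60.2 and 106 in control and 3.19, 51.2 and 95.4 in MCAO cells. Whether the ranges are separate kinds of cell was not tested. A split at 15 per 10000, chosen after the values were seen, put 281 control cells (34.7% [31.5 to 38.1]) and 384 MCAO cells (36.4% [33.5 to 39.4]) in the low range. Within 10 to 20 per 10000 lay 33 control and 38 MCAO cells. The low range, chosen for low Mmp8, had 2.59 and 2.82 Mmp8 UMIs per 10000, beside 2.83 and 3.27 in the shallower B-lineage cells. In the high range Mmp8 stood at 90.3 and 81.6. The median depth was 6372 and 7144.5 UMIs in the low and 4926 and 5703 in the high range.

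**Figure D1:**
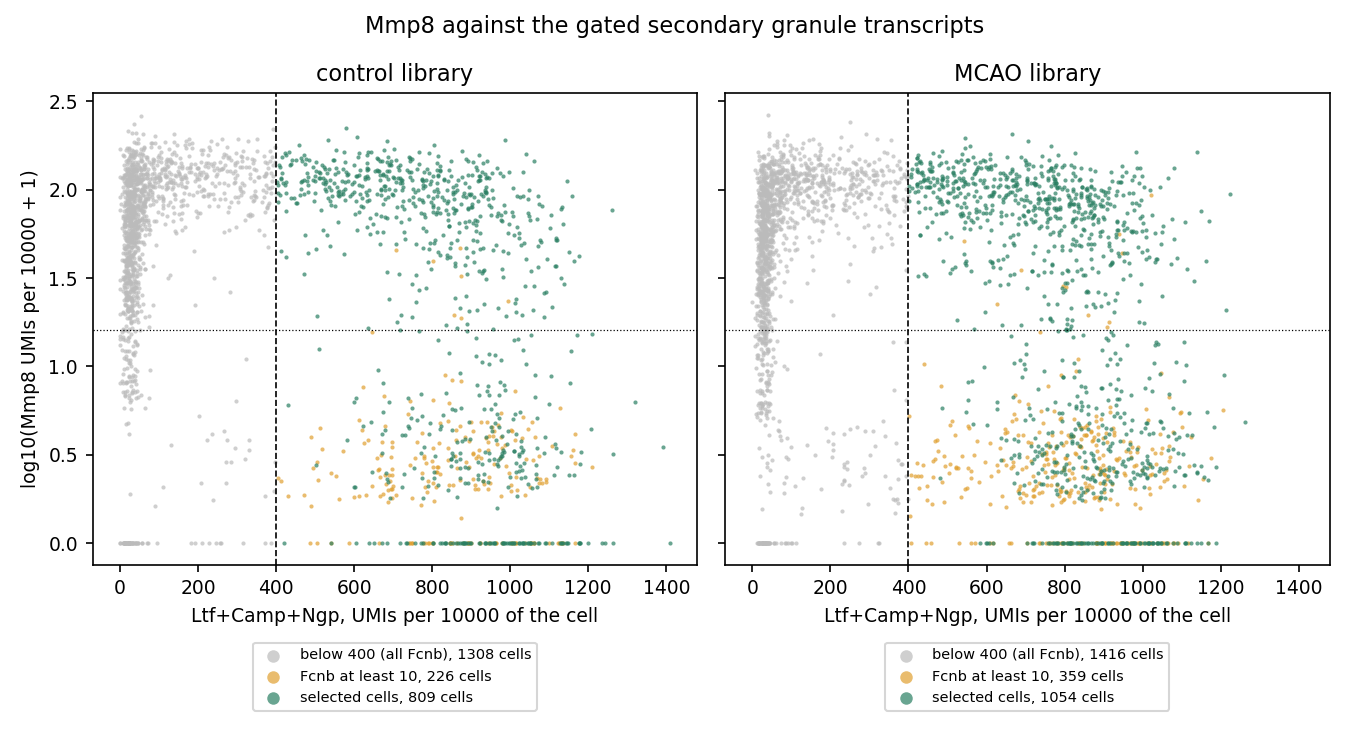
Each point is 1 cell with S100a8 and S100a9 summing to at least 400, with the sum of Ltf, Camp and Ngp on the x axis, log10(Mmp8 UMIs per 10000 + 1) on the y axis and 1 panel per library. The dashed line marks 400 and the dotted line a Mmp8 level of 15. On this log axis green selected cells lie in a high band and a low band of Mmp8. Most orange cells, which have Fcnb at 10 or more, lie in the low band.

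Ltf, Lcn2 and Cd177 were close between the 2 ranges, while Camp, Chil3 and genes of earlier and later stages differed. Ltf stood at 163 and 161 UMIs per 10000 in the low range and at 182 and 173 in the high range (control, then MCAO), and Lcn2 at 229 and 233 against 236 and 238. Cd177 was also level, at 35.0 and 36.4 against 36.2 and 38.8. Camp was higher in the low range, at 167 and 164 against 101 and 98.2, and so was Chil3, which encodes the chitinase-like protein Ym1, at 124 and 108 against 57.4 and 48.4. Cebpe was at 4.64 and 4.68 in the low and 2.60 and 2.41 in the high range, and Orm1, which encodes an acute-phase glycoprotein, at 3.8 and 4.2 against 0.961 and 1.02. Genes of later stages were higher in the high range. Retnlg stood at 13.9 and 16.3 against 120 and 110, Mmp9 at 13.9 and 12.8 against 55.8 and 56.8, Cxcr2 at 2.20 and 2.78 against 12.3 and 11.4, and S100a6 at 9.57 and 15.3 against 32.8 and 43.8. The formyl peptide receptor Fpr1 stood at 0.65 and 0.64 against 5.40 and 4.94. Retnlg in the low range was below its 17.8 in B-lineage cells of both libraries.

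Dividing cells lay almost wholly in the low Mmp8 range. Mki67 and Top2a, which are expressed in cycling cells, summed to at least 10 per 10000 in 110 control cells (13.6% [11.3 to 16.2]) and 176 MCAO cells (16.7% [14.5 to 19.1]), a threshold chosen after the values were seen. Of these, 105 and 163 were in the low Mmp8 range and 5 and 13 in the high range. They were deeper than the other selected cells, with medians of 8294 and 9111 UMIs against 5065 and 5872, and within 5 to 15 per 10000 lay 47 control and 78 MCAO cells. Ly6g was lower in the dividing cells, at 9.53 and 9.78 UMIs per 10000 against 19.7 and 21.5 in the others. Ltf was lower too, at 134 and 134 against 184 and 179, while Camp was higher, at 169 and 165 against 117 and 114. Cd177 differed little, at 33.2 and 34.8 against 36.3 and 38.7. The cell division list (25 genes, 24 measured) summed to 63.6 and 71.6 in the low and 13.9 and 17.0 in the high Mmp8 range, against 61.9 and 42.8 in B-lineage cells.

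**Figure D2:**
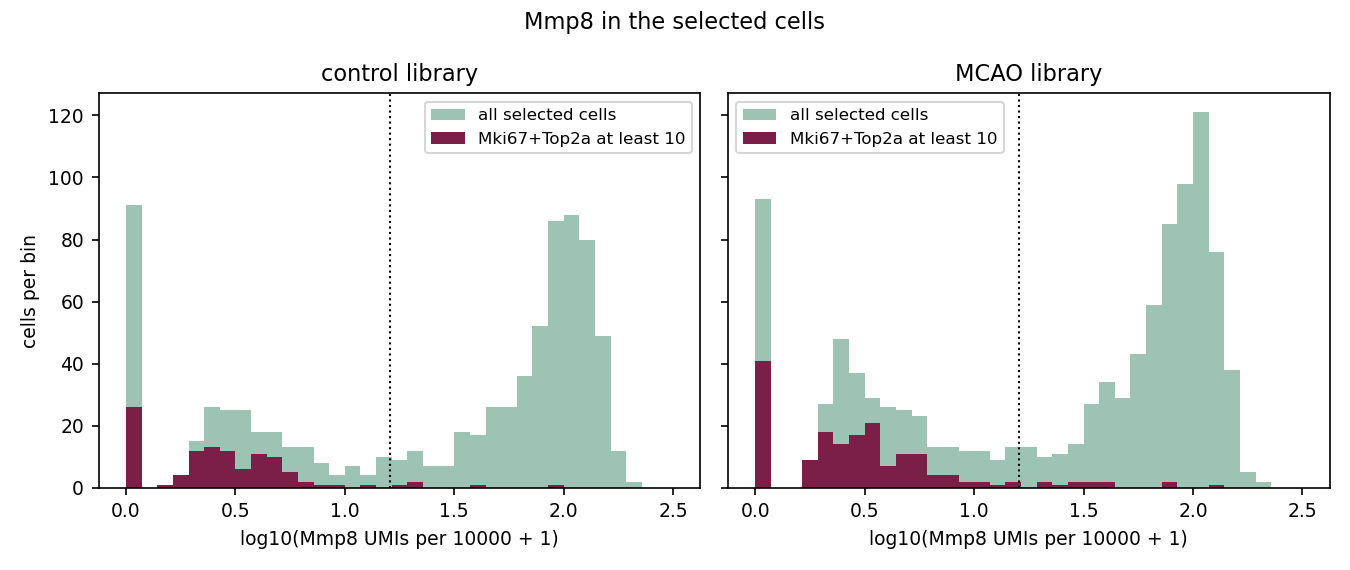
The bars count selected cells by log10(Mmp8 UMIs per 10000 + 1), with 1 panel per library, and dark bars count those with Mki67 and Top2a summing to at least 10. On this log axis most cells lie well to either side of the dotted line at 15. Of the dark cells, 105 of 110 in control and 163 of 176 in MCAO lie on its left.

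Variation between the cells was also measured without a split, as the Fano factor (variance over mean) after thinning to 2000 UMIs, where counting alone gives 1 and the median of 4090 genes was 1.17. Genes were ranked by the lower of their 2 values. Retnlg was the highest, at 26.0 in control and 22.2 in MCAO cells, and Mmp8 had 10.0 and 9.38. Stfa3, a stefin A protease inhibitor, had 8.87 and 16.6, Olfm4 10.3 and 8.85, Ngp 8.07 and 7.74 and Chil3 5.83 and 6.27. Stfa2l1, S100a6, Lyz2, Camp, Top2a and Mmp9 completed the 12 highest after haemoglobin and unnamed gene models were left out, and their values lay between 4.24 and 5.49. Of the 11 apart from Mmp8, which made the split, Retnlg, Chil3, S100a6, Camp, Top2a and Mmp9 are among those given above for the Mmp8 ranges.

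Olfm4, which encodes the secondary granule protein olfactomedin 4, was present in a minority of cells in both libraries. A UMI was found in 87 control cells (10.8%) and 122 MCAO cells (11.6%), and 53 and 73 cells held at least 5 per 10000, a threshold chosen after the values were seen. In B-lineage cells 2.7% and 3.1% held a UMI, and after thinning the shares were 7.6% and 7.9% in the selected cells against 2.5% and 2.2%. The cells with at least 5 averaged 45.8 and 35.4 Olfm4 UMIs per 10000. Most of the other granule genes had summed levels close between them and the 722 control and 932 MCAO cells with 0 Olfm4. Ltf stood at 175 and 164 against 175 and 169, Camp at 129 and 131 against 127 and 126, Ngp at 506 and 508 against 534 and 500, and Cd177 at 35.4 and 38.3 against 35.6 and 37.7. Mmp8 stood at 55.0 and 38.0 against 55.5 and 49.4. Ltf, Camp and Ngp were gated alike in both sets, and Mmp8, which was not, was lower in the MCAO cells with Olfm4.

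When the cells of each library were cut into 3 equal parts by Ltf, Camp and Ngp, late genes were highest in the low part. Retnlg went from 161 UMIs per 10000 in the low part over 58.6 in the middle to 24.1 in the high part in control cells, and from 138 over 52.4 to 27.9 in MCAO cells. Mmp8 went from 88.7 to 26.4 and from 78.5 to 26.0, and Cxcr2 from 14.9 to 3.79 and from 13.1 to 4.41. Chil3 ran the other way, from 54.5 to 108 in control and from 46.8 to 90.4 in MCAO cells, and so did Cebpe, from 2.24 to 4.11 and from 2.21 to 3.95. Cd177 ran from 34.2 to 37.0 in control and from 38.2 to 37.4 in MCAO cells. A share of 10000 UMIs is fixed in total, so a large rule gene takes room from the others, and the low part was also the shallowest, at medians of 4733 and 5517.5 UMIs against 5778 and 6464 in the high part.

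The selected cells were next set beside the 226 control and 359 MCAO cells that met the same thresholds but had Fcnb at 10 or more. The floor for this comparison was 50 UMIs over the 2 gates in each library. Of 7721 genes past it, 558 (7.23%) were at least 1.5-fold higher and 1824 (23.6%) at least 1.5-fold lower in the selected cells in both libraries. The neighbours were deeper, with medians of 9115 and 9688 UMIs. All 10 genes of the gelatinase granule list were at least 1.5-fold higher in the selected cells, with a median log2 ratio of 2.19 in control and 1.71 in MCAO cells. Mmp8 stood at 54.8 and 48.0 against 2.74 and 2.40, and the level in the Fcnb cells was no higher than the 2.83 and 3.27 of B-lineage cells, so no exact fold is given. Mmp9 was 9.76-fold and 10.2-fold higher and Ly6g 3.04-fold and 3.37-fold. Fpr1 stood at 3.48 and 3.10 against 0.354 and 0.298, with 0.342 and 0.326 in B-lineage cells. Gpr27, Acvrl1, Bmx, Stfa3, Bst1, Nt5e and Rin2 complete the 10 highest. Of these, Bst1 stood in the selected cells at 0.611 and 0.643, against 0.738 and 0.383 in B-lineage cells, so in the control library it was not above that level. From the low to the high part by Ltf, Camp and Ngp it went from 1.14 to 0.210 in control and from 1.15 to 0.390 in MCAO cells. Whether free RNA plays a part in its level was not tested.

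Cell division genes were lower than in the Fcnb cells throughout. All 24 measured members were at least 1.5-fold lower in both libraries, where 23.6% of all genes were. Their sums were 34.0 and 40.3 UMIs per 10000 against 103 and 102. Mcm6, a subunit of the replicative helicase, stood at 0.259 and 0.239 against 1.49 and 1.68, and Lig1, the DNA ligase of replication, at 0.475 and 0.530 against 2.46 and 2.98. Ccne2 (cyclin E2), Chek1, Tcf19, Gpx3, Chit1 and Tanc1 were also among the 10 lowest. Early granule genes followed. Ms4a3 stood at 0.220 and 0.280 against 2.16 and 2.16, and Prtn3 at 0.810 and 1.26 against 5.08 and 8.15, and 8 of 11 measured primary granule genes were at least 1.5-fold lower. Prtn3, Mpo and Elane in the selected cells were at or below their level in B-lineage cells (Prtn3 0.967 and 1.42), so they are read as background there. Ribosomal protein genes were at least 1.5-fold lower in 54 of 69. Of the 10 secondary granule genes outside the rule, 3 were at least 1.5-fold higher and 0 lower, where 7.23% and 23.6% of all genes were. Both gates had to pass the same sum of Ltf, Camp and Ngp, and within that sum Camp stood at 128 and 126 against 172 and 173 and Ltf at 174 and 168 against 118 and 111.

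**Figure D3:**
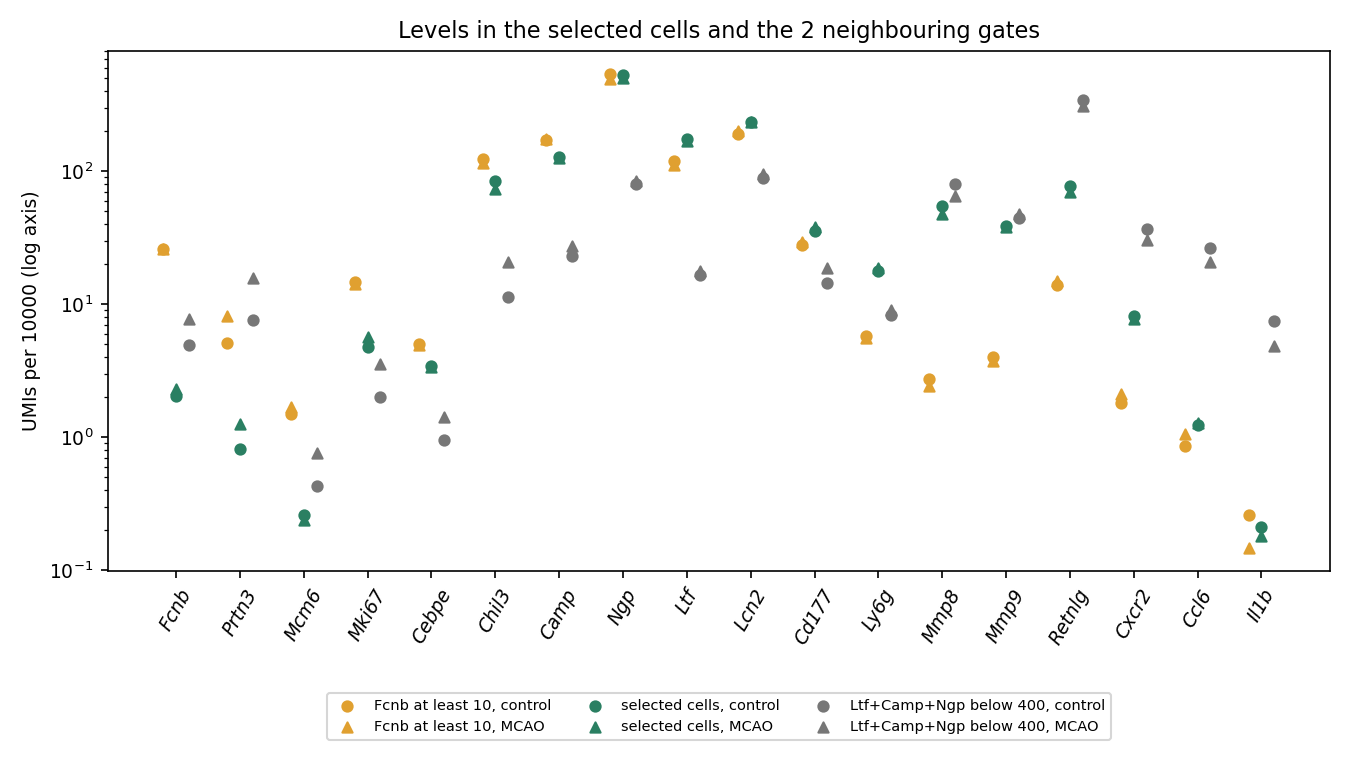
Points give summed UMIs per 10000 (log axis) of 18 genes in 3 gates, with circles for the control and triangles for the MCAO library. Mmp8, Mmp9 and Ly6g are higher in the selected cells than in the cells with Fcnb, and Lcn2 and Cd177 are higher than in the cells below 400. Ltf, Camp and Ngp set that limit, so their difference from the cells below it is fixed by the rule.

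The third comparison was with the 1308 control and 1416 MCAO cells whose Ltf, Camp and Ngp summed to less than 400. These are mixed, since they hold late neutrophils and also early cells with Fcnb (4.93 and 7.76 UMIs per 10000) and Prtn3 (7.64 and 15.8), and they were shallower, at medians of 2720.5 and 3446.5 UMIs. Of 8086 genes past the floor, 533 (6.59%) were at least 1.5-fold higher and 1008 (12.5%) at least 1.5-fold lower in the selected cells in both libraries. Apart from the rule genes, 6 of the other 10 secondary granule genes were at least 1.5-fold higher, among them Lcn2 (2.60-fold and 2.5-fold), Cd177 (2.47-fold and 2.01-fold) and Chil3 (7.48-fold and 3.55-fold). Ly6g, which is in none of the granule lists, was 2.14-fold and 2.08-fold higher. The 10 highest genes outside the rule included Inhba, which encodes a chain of activin A, at 4.19 and 3.52 UMIs per 10000 against 0.414 and 0.355, and Zmpste24, a prelamin A protease, at 4.99 and 5.29 against 0.584 and 0.673, with 1.05 and 0.803 in B-lineage cells. Fmnl2, a formin, stood at 1.18 and 1.05 against 0.107 and 0.0846. Cldn1, Orm1, Aldh3b3, Fbxo10, Tmem45a2, Olfml2b and Mlst8 were the others.

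Genes of late neutrophils were lower in the selected cells. 16 of 18 mature neutrophil genes were at least 1.5-fold lower in both libraries, with 0 higher, where 12.5% of all genes were lower. So were 17 of 22 interferon response genes, 10 of 13 immediate early genes and 10 of 12 innate sensing receptors. Cxcr2 stood at 8.19 and 7.71 UMIs per 10000 against 36.9 and 30.5, and Retnlg at 77.0 and 70.1 against 340 and 308. Il1b was at 0.210 and 0.179 against 7.47 and 4.88, and Ccl6, a chemokine, at 1.23 and 1.28 against 26.3 and 20.9. Their levels in B-lineage cells were 0.298 and 0.395 for Il1b and 1.18 and 1.29 for Ccl6, so neither is separate from background in the selected cells. Srgn, the core protein that holds granule contents, was 12.3-fold and 12.8-fold lower, at 2.95 and 2.11, below its 11.2 and 9.58 in B-lineage cells. Jaml, Clec4d, Sirpb1b, Pla2g7, Prr5l, Cxcl2 and Clec7a were the other genes among the 10 lowest. Of the gelatinase granule genes 4 of 10 were at least 1.5-fold lower. Mmp8, on the secondary granule list, stood at 54.8 and 48.0 against 80.7 and 65.2, and Mmp9 at 38.8 and 38.0 against 44.5 and 47.3.

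The libraries were then compared within the selected cells, where the condition cannot be told apart from the library or its animals. Of 8622 genes past the floor, 357 (4.14%) were at least 1.5-fold higher and 355 (4.12%) at least 1.5-fold lower in the MCAO library, and 4462 (51.8%) were higher at all. The median log2 ratio was 0.01, with the middle 90% of genes between -0.45 and 0.46. All log2 ratios use a pseudocount of 0.02 per 10000, and folds use none. With a floor of 200 UMIs the counts were 64 and 83, so most genes past 1.5-fold had few UMIs.

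Secondary granule genes outside the rule differed little between the libraries. Of these 10 genes 5 were higher and 5 lower, 0 reached 1.5-fold either way, and the median log2 ratio was -0.01. Ltf, Camp and Ngp were gated alike in both libraries and are left out of this count. Lcn2 stood at 233 and 236 UMIs per 10000, Cd177 at 35.7 and 37.8, and Wfdc21, a whey acidic protein family member, at 69.5 and 73.5. Chil3 was 1.14-fold lower in the MCAO library [1.13 to 1.16], at 74.0 against 84.5, and Mmp8 1.14-fold lower [1.12 to 1.16]. All 10 gelatinase granule genes were lower in MCAO cells, by little, with a median of -0.07 and 0 past 1.5-fold. In the low Mmp8 range 8 of these 10 were lower and in the high range 6 of 10. The largest of these differences were in Fpr1, at 3.48 and 3.10, the integrin chain Itgam, at 22.6 and 20.5, and Retnlg, at 77.0 and 70.1. The 6 genes of the NADPH oxidase, which makes superoxide, had a median of 0.04, with Cybb at 42.9 and 41.0 and Ncf1 at 16.4 and 18.6. Within these granule and oxidase groups, no gene past the floor differed by as much as 1.5-fold.

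**Figure D4:**
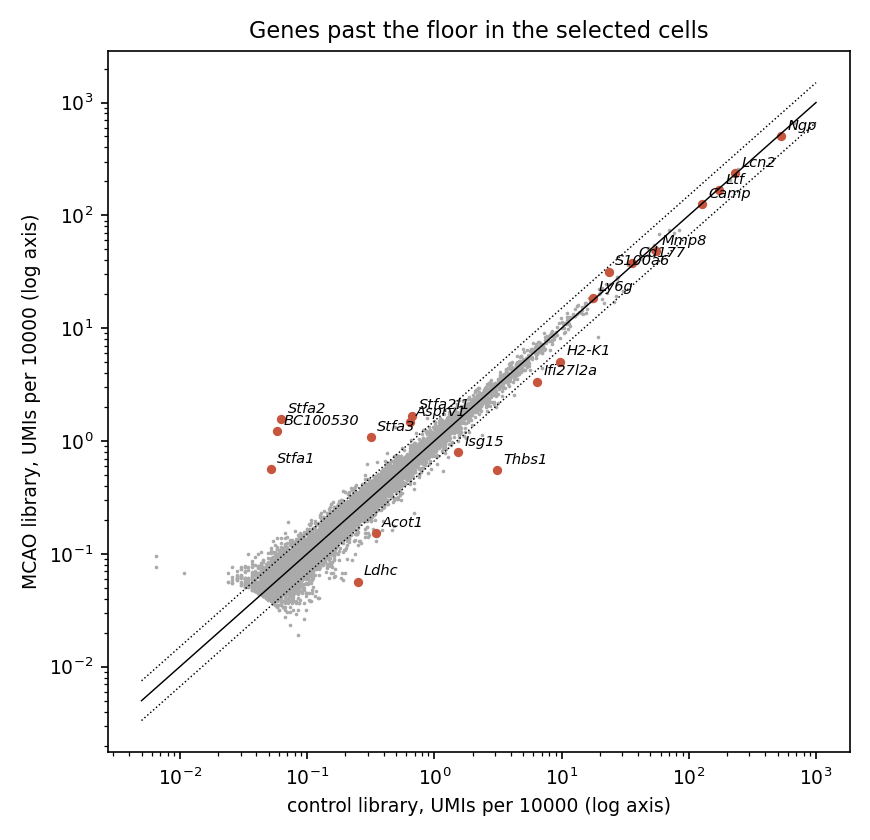
Each point is a gene past the floor, with its level in the selected cells of the control library on the x axis and of the MCAO library on the y axis, in UMIs per 10000 on log axes. The solid line marks equal levels and the dotted lines 1.5-fold, and the granule genes lie near the solid line while the stefin genes, at 1.56 against 0.0626 for Stfa2, lie above and Thbs1, at 0.549 against 3.12, below.

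Interferon response genes were lower in the MCAO library. 21 of 22 were lower, 7 of them by at least 1.5-fold, where 4.12% of all genes were, and the median log2 ratio was -0.49. Their sum was 34.6 UMIs per 10000 in control and 23.5 in MCAO cells. Isg15, a ubiquitin-like protein induced by interferon, stood at 1.54 and 0.800 and was 1.93-fold lower [1.72 to 2.16]. Ifi27l2a, the most abundant member, stood at 6.40 and 3.36, Ifit3 at 0.687 and 0.379, Oasl2 at 4.20 and 2.55 and Ifit3b at 0.521 and 0.316. Ifit2 was the only member that was higher, at 0.134 and 0.165. In B-lineage cells the list summed to 47.5 and 36.1, more than in the selected cells. Ifi27l2a was higher there, at 15.9 and 8.83, and Isg15 was lower there, at 0.756 and 0.414.

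The difference was found in other gates as well. In the low Mmp8 range 19 of the 22 genes were lower in the MCAO library (median -0.58), in the high range 21 (-0.41), in the cells with Fcnb 19 (-0.54), in the cells below 400 all 22 (-0.73) and in B-lineage cells 18 (-0.22). In the 3 parts by Ltf, Camp and Ngp the control sums were 42.2, 34.2 and 28.7 and the MCAO sums 30.7, 20.3 and 20.5, low part first. The medians of all genes were 0.01 in both Mmp8 ranges and in the cells with Fcnb, 0.12 in the cells below 400 and -0.03 in B-lineage cells. The gates share their libraries, so their directions are not independent. The list was thus lower in both Mmp8 ranges, and the B-lineage markers, at 4.59 and 2.12, were lower beside it.

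MHC class I genes, which present peptides at the cell surface and are induced by interferon, were also lower. 10 of 11 were lower, 6 by at least 1.5-fold, where 4.12% of all genes were, and the median was -0.59. H2-K1 stood at 9.75 UMIs per 10000 in control and 5.05 in MCAO cells, 1.93-fold lower [1.85 to 2.02], and the light chain B2m at 25.7 and 17.0. H2-D1, the most abundant member, stood at 26.8 and 19.5. The largest ratios were in H2-Q7, 2.88-fold lower [2.28 to 3.66], H2-Q6, 2.72-fold [2.17 to 3.42], H2-Q4, 2.53-fold [1.83 to 3.53], and their activator Nlrc5, 2.02-fold [1.52 to 2.68]. The class I genes are close copies of each other, and how the counting divided reads between them was not given in the sources used here, so single H2 genes are uncertain. B-lineage cells had H2-K1 at 26.6 and 22.7 and H2-Q7 at 3.76 and 2.67, and B-lineage markers in the selected cells summed to 4.59 and 2.12. Whether free RNA from such cells plays a part was not tested.

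Genes of the stefin A cluster, whose products block cysteine proteases and which lie together on chromosome 16, were higher in the MCAO library. All 6 past the floor were at least 1.5-fold higher, against 4.14% of all genes, with a median log2 ratio of 2.36. Stfa2 had 29 UMIs in control and 1074 in MCAO cells, or 0.0626 and 1.56 per 10000, a 24.98-fold difference [17.3 to 37.5], and was found in 1.73% and 18.2% of cells. After thinning to 2000 UMIs these shares were 0.759% and 7.43%, no higher than the 0.707% and 8.11% of B-lineage cells beyond counting error, so the share of cells does not stand above background. The Stfa2 level in B-lineage cells was 0.0254 and 0.464 per 10000. BC100530 stood at 0.0583 and 1.23, Stfa1 at 0.0518 and 0.559, Stfa3 at 0.318 and 1.08, and Stfa2l1 at 0.672 and 1.68. Gm5483 stood at 0.488 and 1.33, and BC117090, below the floor, had 0 UMIs in control and 10 in MCAO cells. These genes are near-identical copies, so the division of reads between them is uncertain and their sum is the firmer value. It was 1.65 in control and 7.45 in MCAO cells, against 0.876 and 2.98 in B-lineage cells and 18.01 and 43.7 in the cells below 400.

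The stefin sum stood above the B-lineage level in the later cells. In the high Mmp8 range the sum was 2.26 in control and 11.1 in MCAO cells, above the B-lineage level in both libraries. In the low range it was 0.753 and 2.51, below the B-lineage level in both, and is read as background. From the low to the high part by Ltf, Camp and Ngp it went from 2.55 to 0.982 in control and from 13.9 to 2.55 in MCAO cells. Asprv1, a skin and neutrophil aspartic protease, was 2.30-fold higher [2.02 to 2.62] in the selected cells, at 0.644 in control and 1.48 in MCAO cells, with 0.218 and 0.389 in B-lineage cells. The other higher genes named by the rule were low in count. Perp had 5 UMIs in control and 46 in MCAO cells, Nqo1 11 and 46, Ager 17 and 59, Dna2 27 and 94, Col5a1 29 and 94, and Pla2g7 31 and 106. S100a6, a calcium-binding protein of late neutrophils, stood at 23.4 and 31.7 UMIs per 10000, a ratio of 1.35 [1.32 to 1.38], and S100a4 at 0.190 and 0.361.

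Thbs1, which encodes the matrix glycoprotein thrombospondin 1, had the lowest ratio of MCAO over control among the genes named here. It stood at 3.12 UMIs per 10000 in control and 0.549 in MCAO cells, 5.69-fold lower [5.07 to 6.39], and was found in 47.7% and 14.8% of cells. After thinning to 2000 UMIs the shares were 32.7% and 8.67%, against 2.65% and 0.811% in B-lineage cells. Its level in B-lineage cells was 0.189 and 0.0439, and in the cells below 400 it stood at 4.0 and 0.401. In the low Mmp8 range it was at 0.529 and 0.184 and in the high range at 4.89 and 0.821, so the difference was present in both ranges and most of its UMIs lay in the later cells. Thbs1 overlaps the gene model Gm29233 on the opposite strand of chromosome 2, and the use of strand in counting was not given in the sources used here. Ldhc, a testis-type lactate dehydrogenase, had 116 UMIs in control and 39 in MCAO cells, 4.41-fold lower [3.04 to 6.51], and Acot1, an acyl-CoA thioesterase, 160 and 105, 2.26-fold lower [1.76 to 2.92]. Adk, adenosine kinase, had 182 and 133 UMIs, 2.03-fold lower [1.61 to 2.56].

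The other genes named as lower were Hcar2 (56 and 28 UMIs), Agrn (76 and 43), Siglec5 (34 and 16), AC110211.1 (142 and 101), Ces1d (31 and 19), Gzma (69 and 42) and Ccl5 (133 and 96). Gzma and Ccl5 are on the T and NK marker list, which summed to 0.970 in control and 0.680 in MCAO cells with them and to 0.533 and 0.479 without them. Of its 5 genes past the floor 2 were higher and 3 lower. In the low Mmp8 range Gzma and Ccl5 were higher in the MCAO library, with log2 ratios of 0.13 and 0.30, so their direction depends on which cells are taken. Among the transcription factors of the lineage, 15 of 20 were lower with a median of -0.07, and only Per1 passed 1.5-fold, at 0.238 and 0.101 UMIs per 10000. Gfi1, a repressor needed in the lineage, stood at 0.287 and 0.281, and Klf6 at 5.01 and 4.96.

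Signalling lists were lower by small amounts. All 11 immediate early genes past the floor were lower, with a median of -0.20 and 0 past 1.5-fold, led by Fos at 1.55 and 1.14 and with Zfp36, which marks mRNAs for decay, at 5.66 and 4.27. The same list had a median of -0.46 in B-lineage cells. All 9 glucocorticoid response genes past the floor were lower (median -0.23, 1 past 1.5-fold), and 10 of 12 NF-kB inflammatory genes (median -0.18, 2 past 1.5-fold). Of all genes past the floor, 4.12% were lower by at least 1.5-fold. The interval of the ratio lay below 1 for only 4 of the 9 and 4 of the 12. Of the receptors that hold neutrophils in marrow or draw them out, Cxcr4 stood at 4.59 and 3.91 and Cxcr2 at 8.19 and 7.71 UMIs per 10000. The list of 11 such genes had a median of -0.04, with 9 lower and 0 past 1.5-fold. Clec4d stood at 0.546 and 0.303, with 0.356 and 0.270 in B-lineage cells.

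**Figure D5:**
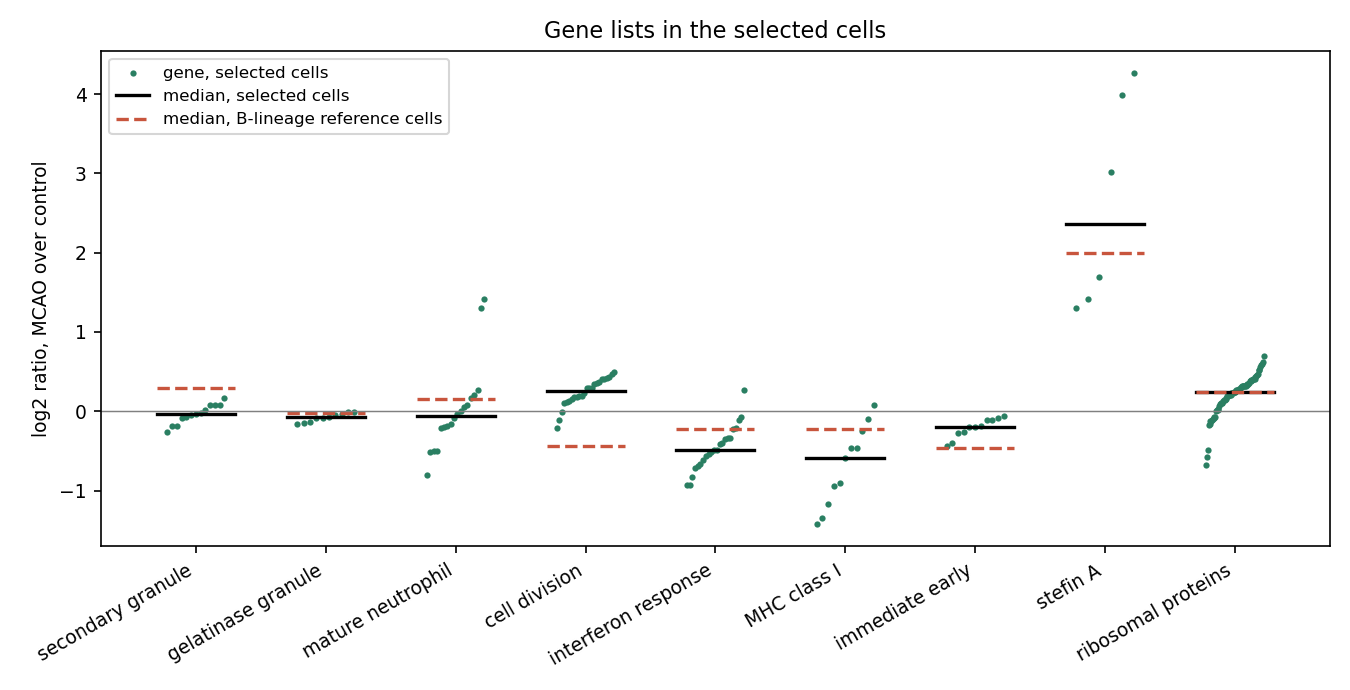
Each green point is a gene past the floor in the selected cells, placed by its log2 ratio of MCAO over control, for 9 lists. Black lines give the list's median in the selected cells and dashed red lines that in B-lineage cells, which lies at -0.22 for interferon response, -0.23 for MHC class I, 2.0 for stefin A and 0.24 for ribosomal proteins.

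Cell division and ribosomal protein genes were mostly higher in the MCAO library, by small amounts. Of the cell division genes 21 of 24 were higher with a median of 0.26 and 0 past 1.5-fold, and Top2a stood at 4.48 and 5.71 UMIs per 10000. In the low Mmp8 range the median was 0.18 over the same genes, in cells with Mki67 and Top2a below 10 it was 0.10, in cells with Fcnb below 5 per 10000 it was 0.14, and in cells with 0 Fcnb UMIs, where its direction turned, it was -0.13. Ribosomal protein genes were higher in 60 of 72, with a median of 0.24, and the median in B-lineage cells was also 0.24. Of the 72, 5 were at least 1.5-fold higher and 3 at least 1.5-fold lower, where 4.14% and 4.12% of all genes were. Nuclear genes of the respiratory chain were higher in 63 of 84 with a median of 0.09. Primary granule genes were higher in 9 of 11 (median 0.32), with Elane at 1.52 and 2.12 and Mpo at 1.15 and 1.53, but B-lineage cells had 1.71 and 2.16 Elane and 1.33 and 1.62 Mpo, so these are read as background. S100, annexin and galectin genes had a median of 0.13, with Anxa1, an anti-inflammatory annexin, at 47.5 and 51.8 and the galectin Lgals3 at 11.1 and 12.5.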

How the data were processed

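The deposited table holds natural log values, which per the file's values are ln(1 + UMIs per 10000 of the cell) for 25943 genes and 10610 cells. Per the submitters' processing notes the authors used fastp, STAR, UMI-tools and Seurat 4.0.6 with mm10, and their order, settings, annotation and cell filters are not given in the sources used here. Whole UMIs were recovered for 100% of 19373615 values above 0 (tolerance 0.01 UMIs). Each column's library was read from the Mandarin word that opens its name. Python 3.11.15, NumPy 2.4.6, SciPy 1.17.1, pandas 2.3.3 and matplotlib 3.10.9 were used.

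Levels are summed UMIs per 10000 over a gate. Level intervals are exact Poisson, ratios exact conditional binomial and shares exact Clopper-Pearson, all at 95%. The ratio calculation was run on simulated Poisson counts, the model that the intervals assume. That run checks the calculation and cannot show how the intervals hold for genes that vary between cells. The floor for MCAO over control was 50 UMIs over both libraries and 2% of the cells of 1. Against a neighbouring gate it was 50 UMIs over the 2 gates in each library. Genes were named by rank: the 12 highest and 12 lowest of MCAO over control whose level was over 1.5 times that of B-lineage cells, the 10 highest and lowest against each neighbouring gate, the 12 most variable, Cd177, the genes of the rule, Ly6g, Lcn2 and up to 4 members of a list described with its most abundant one, without haemoglobin, antigen receptor and Gm or Rik genes. Other genes were named after their values were seen. No cells were filtered and no doublet caller was run. Cells that passed a threshold for Cd79a and Cd79b, the Cd3 genes, haemoglobin genes, or Siglech and Ccr9 were left out as an alternative. The cells and lists were chosen with earlier results of these data known. Gene overlaps come from GENCODE on GRCm38, and protein sequences were not used here.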

Additional observations from a re-analysis of the deposited data

How the results depend on the processing

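The share difference of 4.0 percentage points was positive under all alternatives run and smaller by more than counting error under 2, at 1.66 with cells of at least 2000 UMIs and 2.25 over cells outside the B-lineage gate, a denominator added after the data were seen. The counts of genes at least 1.5-fold higher and lower (357 and 355) were 232 and 224 after thinning to 2000 UMIs, 64 and 83 with a floor of 200 UMIs, 1797 and 1856 with no floor, and 66 and 75 at 2-fold. They follow the floor and the fold by construction, and UMI depth limits genes with few UMIs. The cell division median (0.26) was -0.13 in cells with 0 Fcnb UMIs. Ccl5 (-0.94) was 0.86 in those cells and 0.30 in cells with Mmp8 below 15, and Gzma (-1.06) was 0.13 in the latter. The cause was not tested. The medians ran from -0.65 to -0.38 for interferon response and from -0.62 to -0.48 for MHC class I. Of 580 values of single genes 6 had the other sign (in Ccl5, Gzma, Ly6g, Mmp8 and Retnlg), Mmp8 running from -0.36 to 0.12 and Retnlg from -0.25 to 0.23. Of 483 list medians 27 had the other sign, in cell division and in 4 lists whose median lay within 0.1 of 0 (G-CSF receptor and STAT3, apoptosis, endoplasmic reticulum protein folding and glycolysis). No paired analysis was possible because each condition has 1 library.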
